A study of Homo sapiens with 6 samples.

Results

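Accessible chromatin was examined at 10 genes of the YAP and TEAD pathway: PTPN14, YAP1, WWTR1, TEAD1, TEAD3, TEAD4, CCN1, CCN2, AMOTL2 and ASAP1. All peaks that overlapped a gene body or the 20 kb on either side of it were taken, which gave 188 of 98910 peaks in the WT list, 172 of 89416 in the E545K list and 194 of 106747 in the H1047R list. Peaks that touched across lists were merged into 218 regions at these 10 genes, of 120615 regions at all loci, and the 10 genes were chosen by name from the 19103 protein-coding genes of the annotation. The cells were MCF-10A, a non-tumorigenic human breast epithelial line, assayed by ATAC-seq, a method that uses the Tn5 transposase to cut and tag DNA in open chromatin.

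The WT group was parental MCF-10A with wild-type PIK3CA. The E545K and H1047R groups were knock-in MCF-10A lines that carry the named substitution in PIK3CA, the catalytic subunit of PI3K. Each group held 2 samples, and the labels do not say whether the knock-ins were single clones. Parental cells were kept with 20 ng/ml EGF and the knock-ins with 0 ng/ml, both with 5% horse serum, so genotype and maintenance medium cannot be told apart. For the last 24 h all 6 samples had the same assay medium, with cholera toxin (100 ng/ml), hydrocortisone (0.5 µg/ml), insulin (10 µg/ml), stripped FBS (1%) and EGF at 0.2 ng/ml. Both samples of a genotype share 1 pooled peak list, so there is no replicate check of any difference below, depth is unknown and no p-value is given.

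YAP (YAP1) and TAZ (WWTR1) are coactivators that do not bind DNA themselves and act through the TEAD factors. In the Hippo cascade the MST kinases act on LATS, and LATS phosphorylates YAP and TAZ and keeps them in the cytoplasm. PTPN14 and the AMOT family bind YAP and TAZ there as further brakes. CCN1 (CYR61), CCN2 (CTGF) and AMOTL2 are among the most used readouts of YAP in epithelial cells. TEAD factors recognise GGAATG, which reads CATTCC on the opposite strand, and many of their enhancers also hold AP-1 elements, TGANTCA.

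Each of the 10 genes carried a promoter peak in every list, as did 65.5% of coding genes (67.4% in WT, 67.7% in E545K and 68.1% in H1047R taken alone), a promoter being the start of the canonical transcript with 1 kb on each side. What differed was the extent of the peaks. The CCN1 and CCN2 promoter peaks were among the largest of the WT and E545K lists and were shorter and lower in H1047R. At CCN1 the stretch was split into 3 peaks in H1047R, and the bases covered over the locus were close in the 3 lists. The introns of WWTR1 held more and larger peaks in H1047R, and the 5′ part of PTPN14 wide, low peaks in E545K. At TEAD1 most regions with 1 peak of each list ranked lower by area in both knock-in lists than in WT. In the pattern of presence the 10 genes as a group were close to all regions: 134 of their 218 regions (61.5%) held peaks of all 3 lists, against 61.2% of all regions. WT and H1047R alone shared 19 (8.72%, against 9.76%), WT and E545K 8 (3.67%, against 2.13%) and the knock-ins 8 (3.67%, against 4.62%). Peaks of 1 list made up the rest, 20 regions for H1047R (9.17%, against 11%), 15 for WT (6.88%, against 6.73%) and 14 for E545K (6.42%, against 4.52%).

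The labels name breast epithelium, and markers were checked by promoter peak. Promoter peaks in all 3 lists were found at 7 of 8 basal markers, all but TP63 at its canonical start, at 4 of 4 epithelial markers and at 3 of 4 luminal hormone markers, all but PGR. None of 4 leukocyte or 3 endothelial markers and 1 of 3 fibroblast markers had one in every list, though single lists held a promoter peak at SPI1 (E545K) and CDH5 (WT), and WT and E545K one at PDGFRA. Presence does not show size. The peak of the basal marker KRT14 was small, with areas of 377 (WT), 320 (E545K) and 231 (H1047R). That of the fibroblast marker COL1A2 had 280, 284 and 284. The median peak width was 466 bp in WT, 539 bp in E545K and 466 bp in H1047R, and the median summit value 4.25, 3.97 and 4.14.

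Peak size is given as the area that the authors' peak caller wrote, the area under its −log10 p curve over the peak, so a wide peak and a tall peak can reach the same area, and it counts no reads. The summit value is the −log10 p at the highest position. Since both depend on the depth of a list, areas are given side by side as description, and for comparison promoters were ranked among the 12509 promoters with a peak in all 3 lists, and a difference of at least 10 percentile points was counted. By area, 0 of 10 promoters ranked that much lower in E545K than in WT, where 6.77% of shared promoters did, and 1 of 10 (ASAP1) ranked higher, with 7.83% of all. In H1047R 2 of 10 ranked lower than in WT (CCN2 and TEAD1), with 6.7% of all shared promoters, and 1 of 10 higher (ASAP1), with 7.5% of all. Against E545K, 1 of 10 ranked lower in H1047R (CCN2), with 7% of all, and 0 higher, with 6.04% of all. By summit value 6 of 10 were lower in H1047R than in WT, with 8.43% of all, and 5 of 10 lower than in E545K, with 7.97% of all. Higher by summit value were 1 of 10 in H1047R than in WT (ASAP1), with 9.2% of all, and 0 than in E545K, with 7.89% of all. In E545K 0 were lower than in WT, with 10% of all, and 1 higher (WWTR1), with 9.84% of all. The 6 were PTPN14, YAP1, TEAD1, CCN1, CCN2 and AMOTL2.

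**Figure D1:**
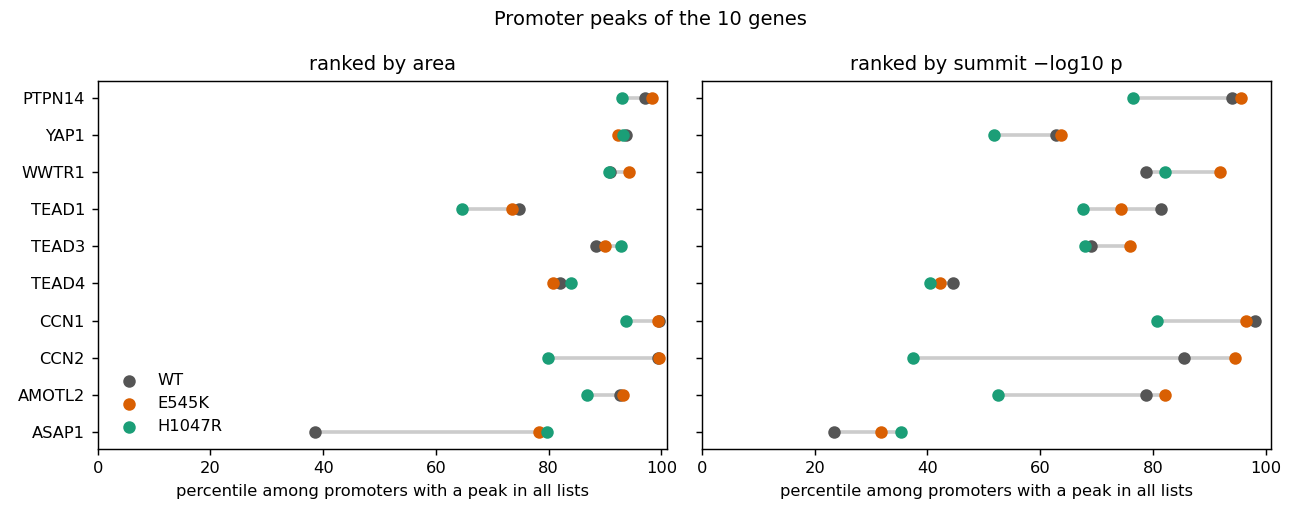
Percentile rank of the promoter peak of each gene among the 12509 promoters with a peak in all 3 lists, by area (left) and by summit −log10 p (right); each point is 1 pooled list and the grey line spans the 3 lists. CCN2 lies at 99.5 in WT and E545K and at 79.9 in H1047R by area, and at 85.4, 94.6 and 37.4 by summit value.

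CCN2 encodes a secreted matricellular protein and is a widely used YAP target (ENSG00000118523.6, hg38 chromosome 6, 131948176 to 131951372, minus strand). Its promoter peak had areas of 18411 (WT), 21077 (E545K) and 5942 (H1047R). The WT and E545K values lie close together and the H1047R value is far below both. By rank the difference from WT to H1047R was −19.5 percentile points, and 1.4% of shared promoters ranked as much lower or more. Among the 69662 shared regions, those that held exactly 1 peak of each list, the same peak went from percentile 99.96 to 96.82, a difference of −3.14 points, and 36% ranked as much lower or more. In width the peak spanned 6314 bp in WT, 6338 bp in E545K and 3098 bp in H1047R. The peak began 589, 533 and 533 bp before the start in the 3 lists, so the side away from the gene was alike. On the other side it ran 2528 bp past the end of the gene in WT and 2608 bp in E545K, whereas in H1047R it covered 80.2% of the gene body and stopped short of its end. The ratio of the H1047R width to the WT width was 0.491, and 0.839% of shared promoters had a ratio as low, with a median ratio of 1.01. The summit value was 9.73 in WT, 9.82 in E545K and 6.98 in H1047R, so height as well as width was lower in H1047R.

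The 250 bases before the start of CCN2 and CCN1, which lie inside the promoter peaks of all 3 lists, are shown with TEAD motifs in capitals, each read 5′ to 3′ on the strand of its gene (chr6:131951373-131951622, minus strand, and chr1:85580511-85580760, plus strand, hg38).
CCN2 promoter: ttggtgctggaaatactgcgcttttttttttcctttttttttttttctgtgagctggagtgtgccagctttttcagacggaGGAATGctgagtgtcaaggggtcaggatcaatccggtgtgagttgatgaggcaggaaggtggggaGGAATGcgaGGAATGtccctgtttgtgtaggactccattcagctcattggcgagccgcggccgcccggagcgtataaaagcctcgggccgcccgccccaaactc
CCN1 promoter: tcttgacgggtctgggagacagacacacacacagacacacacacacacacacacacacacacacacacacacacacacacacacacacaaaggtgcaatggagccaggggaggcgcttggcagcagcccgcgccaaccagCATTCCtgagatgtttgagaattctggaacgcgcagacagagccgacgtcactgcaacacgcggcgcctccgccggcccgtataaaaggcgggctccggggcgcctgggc
CCN2 holds 3 copies of GGAATG in this window. At least 3, a cut-off taken from the CCN2 count itself, were held by 10 of 19103 promoters (0.0523%), CCN2 included. CCN1 holds 1. A TEAD motif was found in the window of 7 of 9 genes (the ASAP1 promoter sequence was not used here), against 9.77% of all promoters, and AP-1 in 0 of 9, against 4.67%. A match describes letters in a window and does not show that a factor binds there. The summit of the CCN2 peak lay at position −107 in WT, −105 in E545K and −97 in H1047R relative to the start, so the highest point stayed in the stretch that holds the TEAD motifs.

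A region 3.56 kb upstream of CCN2, between genes, was also lower in H1047R, at 2166 (WT), 2277 (E545K) and 1137 (H1047R). Among the same 69662 shared regions it ranked at percentile 79.6, 83.3 and 58.7. The 201 bases around its WT summit (chr6:131954832-131955032, minus strand) were chosen for display by these values, as the CCN2 shared region that ranked most lowered from WT to H1047R. An AP-1 element in them directly abuts a TEAD motif, both in capitals.
CCN2 upstream: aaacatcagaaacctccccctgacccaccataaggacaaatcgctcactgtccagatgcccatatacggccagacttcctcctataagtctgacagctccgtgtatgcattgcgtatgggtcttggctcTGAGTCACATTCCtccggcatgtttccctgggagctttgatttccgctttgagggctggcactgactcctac
The joined element, TGANTCA followed with no gap by CATTCC on either strand, was found within 100 bp of the summit of 35 of 98910 WT peaks (0.0354%). Of these peaks 1 was at the 10 genes, the one shown. The element was defined from this sequence, so that match was set in advance. A small E545K peak 1.11 kb upstream (area 226) and a small WT peak 13.1 kb downstream (area 233) had no partner in either other list, where a partner is any overlapping peak (1 bp or more). Over the whole CCN2 locus, peaks covered 17.3% of the bases in WT, 17.4% in E545K and 8.82% in H1047R.

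CCN1 encodes a related secreted protein (ENSG00000142871.18, chromosome 1, 85580761 to 85584589, plus strand). Its promoter peak measured 22315 in area in WT, 19975 in E545K and 8673 in H1047R. As at CCN2, WT and E545K lay together and H1047R lay below. The peak spanned 5514, 6520 and 3539 bp, running 812 bp past the gene end in WT and 1961 bp in E545K. The whole stretch was called as 2 peaks in WT, 1 in E545K and 3 in H1047R, with summed areas of 23247, 19975 and 12915. These sums were closer than the single peaks and in the same order. Over the whole CCN1 locus, peaks covered 24.5% of the bases in WT, 22.8% in E545K and 22.9% in H1047R. The gene body was covered to 100%, 100% and 96.4%. By rank the promoter was at percentile 99.6 in WT, 99.4 in E545K and 93.7 in H1047R, a difference of −5.91 points from WT to H1047R. With areas summed over the region, it was at 99.91, 99.88 and 99.67 among the 73832 regions with peaks of all lists, a difference of −0.244 points, and 50.1% of those regions ranked as much lower or more. The summed rank thus differed little, while the summed areas of WT and E545K lay well above that of H1047R. By summit value it was at 98.1, 96.5 and 80.7. Of the promoters at or above the 90th percentile by summit value in WT, 3.2% ranked at least 10 points lower in H1047R, and those of CCN1 and PTPN14 were among them.

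Upstream of CCN1 lie further regions, within introns of the neighbouring gene DDAH1. The one 8.15 kb upstream had summed areas of 6100 (WT), 3405 (E545K) and 4983 (H1047R), so there E545K was lowest. The one 3.81 kb upstream had 3707, 3269 and 3247, and by summit value its rank difference to H1047R was −8.38 points from WT and −9.38 from E545K. A region 11.6 kb upstream held peaks of WT (494) and H1047R (744) and none of E545K. The H1047R peak there, a strong one (in the upper 50% of its list by area), carried an AP-1 motif within 100 bp of its summit.

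**Figure D2:**
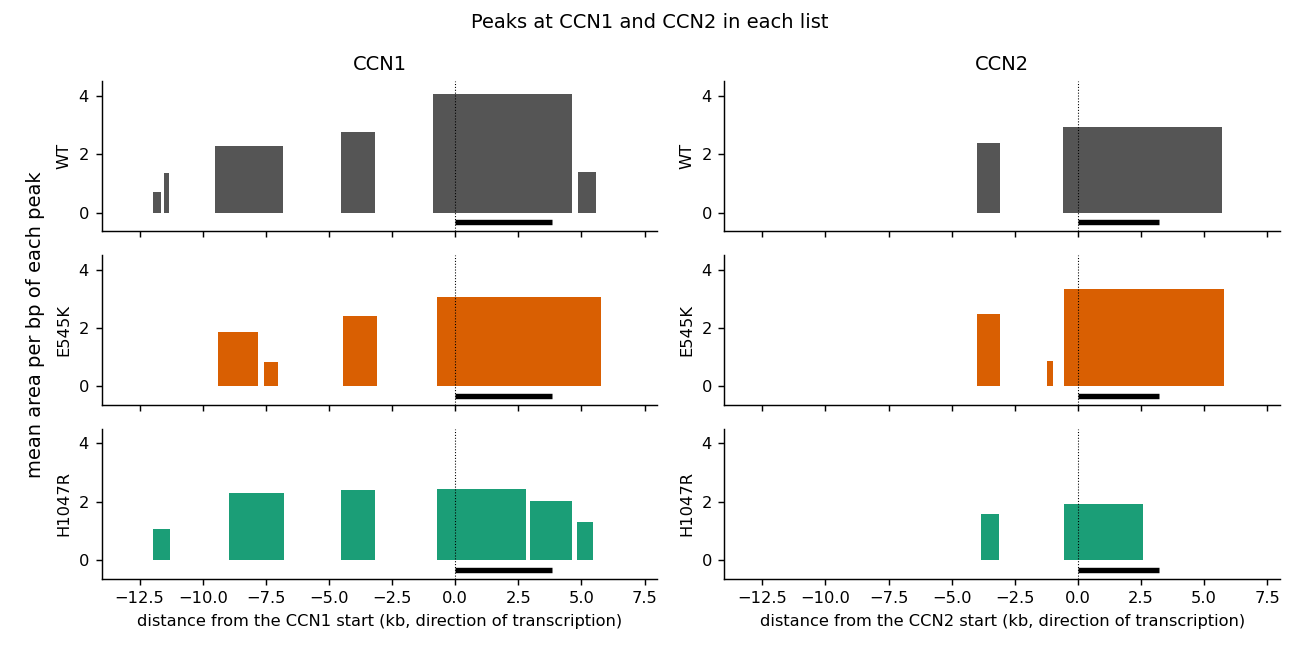
Peaks of the 3 pooled lists at CCN1 (left) and CCN2 (right); the x axis is the distance from the start in kb along the direction of transcription, bar width is the extent of a peak, bar height is its area per bp, and the black line is the gene body. The long peaks of WT and E545K run past the end of both genes, and the H1047R promoter peak ends 2817 bp after the start of CCN1 and 2564 bp after that of CCN2. At CCN1 the same stretch holds 3 H1047R peaks.

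AMOTL2, a scaffold that binds YAP and is itself a target (ENSG00000114019.15, chromosome 3, 134355347 to 134375479, minus strand), had promoter areas of 8329 (WT), 8091 (E545K) and 6897 (H1047R). H1047R was again the lowest list, by a smaller margin, with a rank difference of −5.82 points from WT. By summit value the percentiles were 78.7, 82.1 and 52.5. Of its 12 regions 11 held peaks of all 3 lists. Across these 11 shared regions the median rank difference was 1.17 points from WT to E545K and −2.2 from WT to H1047R. The exceptions went both ways: a region 20.1 kb downstream of the start, just past the gene, had areas of 739, 814 and 333, and one 37.4 kb downstream had 887, 980 and 1828.

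ASAP1, an ARF GTPase-activating protein gene (ENSG00000153317.15, chromosome 8, 130052104 to 130443674, minus strand), showed another pattern. Its largest promoter peak had areas of 2928 (WT), 5198 (E545K) and 5929 (H1047R), or percentile 38.6, 78.2 and 79.7. That contrast came with a split of the WT signal into 3 peaks: summed over the region the areas were 5600, 5198 and 5929, at percentiles 95.3, 95.3 and 95.9 among the 73832 regions with peaks of all lists. By the summed value the 3 lists were therefore alike at this promoter. By summit value the percentiles were 23.5, 31.8 and 35.3. The summit of the largest promoter peak lay at position 36 in WT and E545K and −1169 in H1047R relative to the start. That H1047R summit is outside the 1 kb on each side that define the promoter, so the summit values compare different positions. The gene body is long and held many peaks, 42 in WT, 40 in E545K and 51 in H1047R over the locus. Among 51 H1047R peaks 15 lacked a WT partner, as did 17.9% of all H1047R peaks, and 1 of the 15 was strong. Across 25 shared regions the median rank difference was −3.45 points from WT to E545K, with 7 regions at least 10 points lower and 2 higher (17.7% and 17.1% of all shared regions). The 2 regions 237 and 236 kb into the gene had areas of 776 and 1342 in WT, 354 and 411 in E545K and 640 and 916 in H1047R, so WT was highest at both.

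PTPN14 encodes a phosphatase that binds YAP and holds it outside the nucleus (ENSG00000152104.12, chromosome 1, 214348700 to 214552449, minus strand). Its promoter peak had areas of 10785 (WT), 12712 (E545K) and 8411 (H1047R), with E545K highest and H1047R lowest. The widths were 3502, 4142 and 3296 bp and the summit values 10.5, 10.0 and 8.82. By area the percentile moved little (97.2, 98.4 and 93.0), and by summit value it was 94.0, 95.7 and 76.5.

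The first intron of PTPN14 runs from 0.42 to 86.6 kb below the start, and its part from 3 to 51 kb was chosen for description after the values were seen. Peaks covered 8.97% of this stretch in WT, 30.9% in E545K and 2.89% in H1047R, as 7, 11 and 3 peaks. Their summed areas were 2439, 9709 and 1025. All were low, with summit values of 2.15 to 3.78 in WT, 2.13 to 3.79 in E545K and 2.59 to 2.89 in H1047R, below the median of the list in each case. The widest E545K peak spanned 3538 bp (area 2700, summit 25.7 kb below the start) and overlapped 3 small WT peaks and no H1047R peak. The next by area, 35.2 kb below the start, had an area of 1267 in E545K, 325 in WT and no H1047R partner. The 201 bases around its summit (chr1:214516312-214516512, minus strand) hold a TEAD motif, in capitals, and no AP-1 element.
PTPN14 E545K intron: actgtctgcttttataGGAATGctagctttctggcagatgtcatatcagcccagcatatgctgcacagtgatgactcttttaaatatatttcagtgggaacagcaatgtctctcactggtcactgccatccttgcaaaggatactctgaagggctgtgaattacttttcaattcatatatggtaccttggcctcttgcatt

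**Figure D3:**
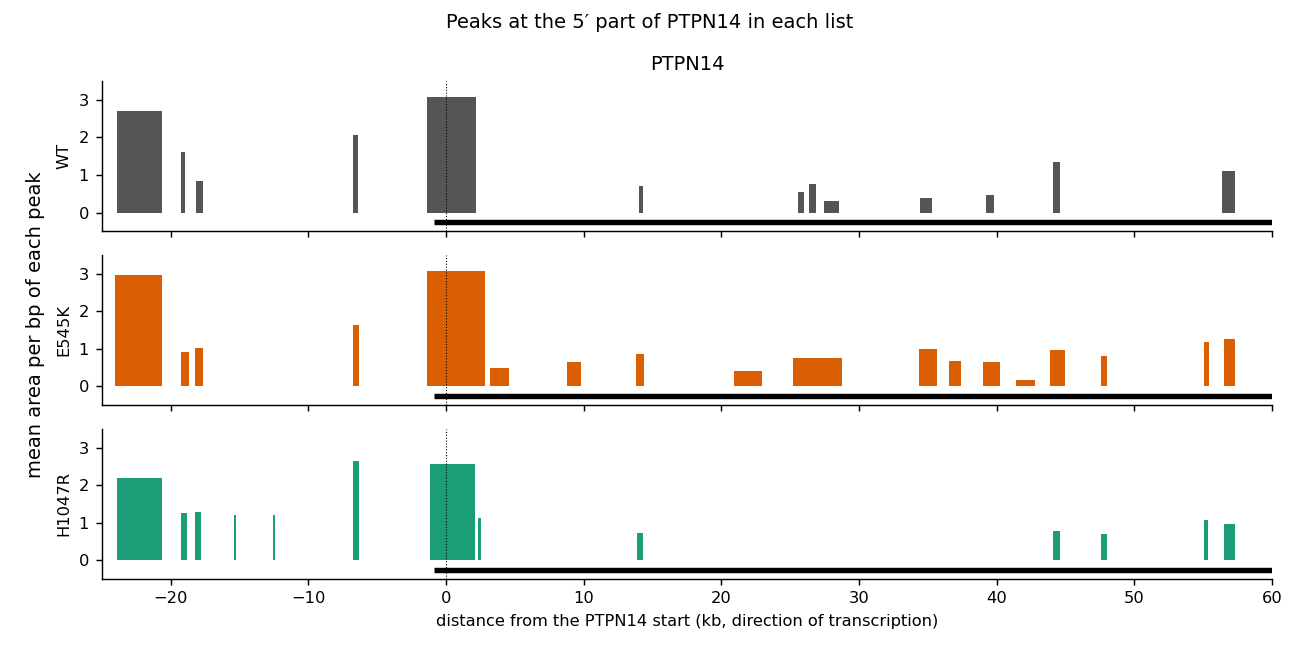
Peaks of the 3 pooled lists at the 5′ part of PTPN14, drawn as distance from the start in kb along the direction of transcription; bar width is the extent of a peak, bar height its area per bp, and the black line the gene body. Between 3 and 51 kb the E545K row holds 11 low peaks of 484 to 3538 bp and the H1047R row 3 of 401 to 553 bp.

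Strong E545K peaks without an H1047R partner numbered 7 of 93 at the 10 genes (7.53%, Wilson 95% interval 3.69 to 14.7 for counting error), against 1.6% of all strong E545K peaks. All 7 were at PTPN14, 6 of them in this intron stretch, so the excess is that of 1 locus. When strength was taken from the summit value instead, 0 of 84 lacked a partner, which allows up to 3.57%. Peaks at least 1000 bp wide with a summit value under 4, a class also set after the values were seen, made up 10 of 43 E545K peaks at PTPN14, 2 of 42 in WT and 0 of 40 in H1047R. Such peaks were more frequent in the whole E545K list too (3.41%) than in WT (1.1%) or H1047R (0.939%), and their part in the PTPN14 result was not tested. At the other end of the gene, a peak 171 kb below the start was present in E545K (area 835) and H1047R (781) and absent from WT.

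Elsewhere at PTPN14 single regions departed from the rest. The shared region 126 kb below the start had areas of 836 (WT), 225 (E545K) and 846 (H1047R), so here E545K alone was low. Across its 24 shared regions the median rank difference was 3.31 points from WT to E545K and −2.77 from WT to H1047R. Against E545K, 11 of 24 ranked at least 10 points lower in H1047R, with 17.2% of all shared regions. A region 6.53 kb upstream of the start ranked higher in H1047R, with 808 (WT), 734 (E545K) and 1165 (H1047R) in area. It is the PTPN14 region with the largest WT peak among those holding a TEAD motif and an AP-1 element near the summit in all 3 lists (chr1:214558121-214558321, minus strand, both in capitals).
PTPN14 upstream: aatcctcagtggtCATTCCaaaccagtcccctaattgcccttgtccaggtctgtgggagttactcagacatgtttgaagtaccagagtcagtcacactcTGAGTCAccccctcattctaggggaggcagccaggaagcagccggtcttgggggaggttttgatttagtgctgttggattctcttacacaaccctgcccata

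YAP1 (ENSG00000137693.14, chromosome 11, 102110447 to 102233424, plus strand) had promoter areas of 8730 (WT), 7817 (E545K) and 8502 (H1047R), at percentiles 93.7, 92.4 and 93.3. The 3 lists were alike by area, and by summit value H1047R was lower (62.9, 63.6 and 51.8). Inside the gene the larger regions had smaller areas in both knock-in lists. The region 68 kb into the gene had 2727, 1910 and 2059, and the region 113 kb into it 2662, 1814 and 1889. The region 28.7 kb in had 1430 in WT, 458 in E545K, where it was split into 2 peaks, and 1080 in H1047R. Of 8 shared regions 5 ranked lower in E545K and 5 lower in H1047R than in WT, with medians of −4.07 and −8.05 points. Over all 69662 shared regions 36415 and 36234 ranked lower, so the 5 of 8 is near the share of all regions.

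WWTR1, which encodes TAZ (ENSG00000018408.15, chromosome 3, 149517235 to 149736714, minus strand), had a promoter area of 7783, 8473 and 7724 in WT, E545K and H1047R, at percentiles 90.8, 94.3 and 90.7. The promoter was alike in the 3 lists by area. The introns were not. The locus held 16 peaks in WT, 13 in E545K and 20 in H1047R, and strong peaks numbered 6, 5 and 11. The region 77.8 kb into the gene had areas of 372 (WT), 334 (E545K) and 1024 (H1047R), at percentiles 14.0, 18.2 and 54.5 among shared regions. The region 31.2 kb in had 363, 253 and 901 (percentiles 13.2, 7.42 and 49.0), and the one 81.7 kb in 985, 623 and 1804 (55.4, 44 and 74.0). In each of these H1047R was well above both other lists. At 76.3 kb the order was graded, with 766, 1097 and 1825 (44.9, 64.3 and 74.3). At 71 kb the strong H1047R peak (644) overlapped a small WT peak (259) and no E545K peak, and it carried an AP-1 motif near its summit.

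Across 13 shared regions at WWTR1, 6 ranked at least 10 points higher in H1047R than in WT and 0 at least 10 points lower, where 17.6% and 18.3% of all shared regions did. The median difference was 6.06 points. From WT to E545K the median was 3.72 points, with 5 regions at least 10 points higher and 1 lower (17.1% and 17.7% of all), and the regions were partly different ones: those 9.35 and 11.6 kb into the gene had 454 and 487 in WT, 575 and 698 in E545K and 567 and 659 in H1047R. One of the regions at the edge of the locus is the promoter of the neighbour COMMD2. The 201 bases around the WT summit of the region with the largest rank difference from WT to H1047R, 77.8 kb in (chr3:149580211-149580411, minus strand), hold neither motif. By contrast the region 110 kb in holds both, in capitals (chr3:149548245-149548445, minus strand), and its areas were alike, at 1517, 1513 and 1625.
WWTR1 intron, H1047R highest: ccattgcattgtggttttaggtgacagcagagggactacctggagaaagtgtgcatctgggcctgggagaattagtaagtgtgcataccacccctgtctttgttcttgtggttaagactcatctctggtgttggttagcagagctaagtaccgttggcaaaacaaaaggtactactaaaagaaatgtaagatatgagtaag
WWTR1 intron, alike in all lists: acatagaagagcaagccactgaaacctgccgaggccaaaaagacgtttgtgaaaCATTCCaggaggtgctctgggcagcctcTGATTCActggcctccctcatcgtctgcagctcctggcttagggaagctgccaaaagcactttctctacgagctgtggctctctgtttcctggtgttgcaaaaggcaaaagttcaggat

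TEAD1 (ENSG00000187079.20, chromosome 11, 12674421 to 12944737, plus strand) had promoter areas of 5327 (WT), 4754 (E545K) and 4629 (H1047R), at percentiles 74.8, 73.5 and 64.6. The difference from WT to H1047R was −10.1 points, and 6.49% of shared promoters ranked as much lower. The locus held 36 peaks in WT, 28 in E545K and 34 in H1047R, of which 19, 14 and 22 were strong. H1047R thus held the most strong peaks, while along the gene most shared regions ranked lower in the knock-in lists than in WT. The region 95.7 kb in had areas of 1414 (WT), 566 (E545K) and 1039 (H1047R), and its neighbour 96.7 kb in 2076, 1015 and 1243. The region 144 kb in had 1055, 342 and 730, and the one 165 kb in 1121, 485 and 707. E545K was the lowest by area in all 4, and ranked lowest at percentiles 67.9, 40.2 and 55.2 for the first and 58.0, 19.0 and 39.6 for the third. Of 26 shared regions 19 ranked lower in E545K than in WT and 19 lower in H1047R than in WT. Over all 69662 shared regions 36415 and 36234 did. The medians were −5.79 and −7.2 points, against −0.291 and −0.244 over all shared regions. At least 10 points lower than in WT were 8 in E545K and 9 in H1047R, with 17.7% and 18.3% of all. At least 10 points higher were 1 and 2, with 17.1% and 17.6% of all. Both comparisons share the WT list. Regions 19.4 and 22.6 kb in went the other way, with 1816 and 994 in WT, 2109 and 1130 in E545K and 2263 and 1158 in H1047R.

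The TEAD1 region with the largest rank difference from WT to E545K, 144 kb in (chr11:12818755-12818955, plus strand), holds an AP-1 element around its WT summit, in capitals, and no TEAD motif.
TEAD1 intron: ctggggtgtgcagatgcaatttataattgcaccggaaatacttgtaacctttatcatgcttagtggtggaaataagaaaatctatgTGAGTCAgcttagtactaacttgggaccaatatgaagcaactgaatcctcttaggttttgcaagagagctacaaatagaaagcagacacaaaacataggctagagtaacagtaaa
Strong H1047R peaks without an E545K partner lay 43.5 and 80.7 kb into TEAD1 (areas 838 and 945), and both had a WT partner.

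**Figure D4:**
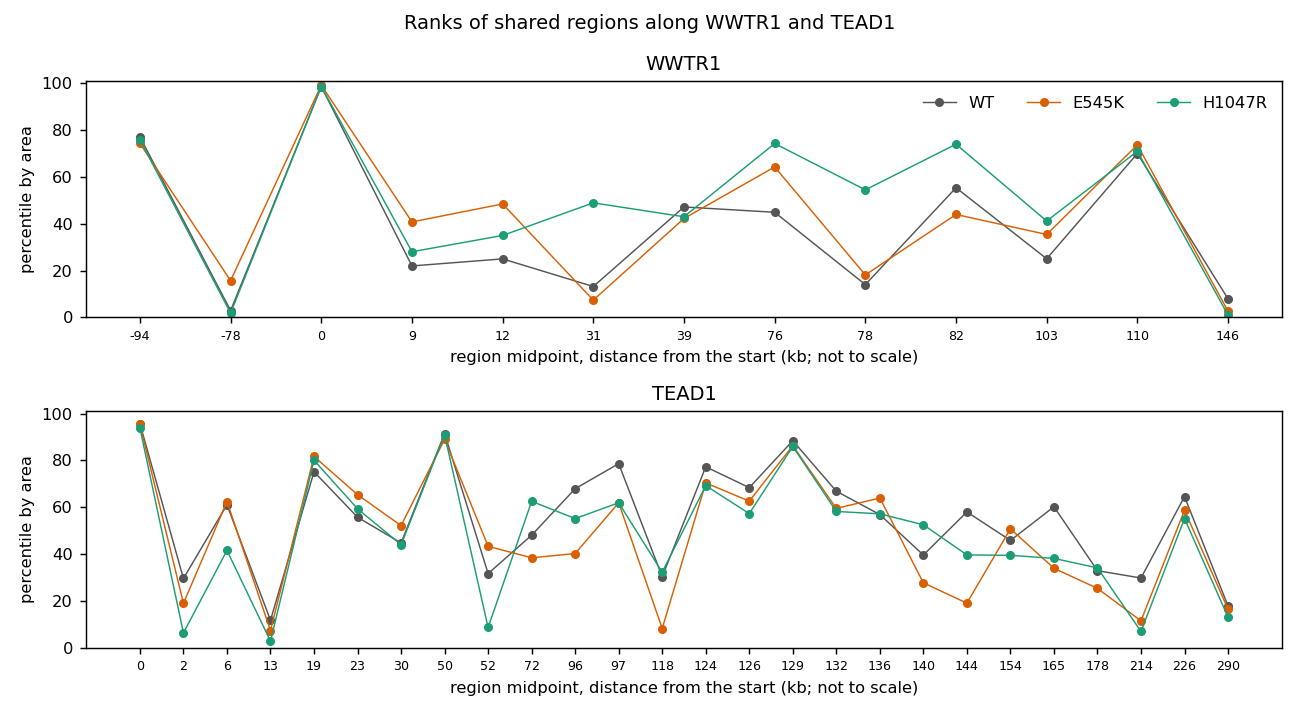
Percentile rank by area of each shared region along WWTR1 (top, 13 regions) and TEAD1 (bottom, 26 regions), ordered by distance of the region midpoint from the start; lines join the regions of 1 pooled list and distances on the x axis are in kb and not to scale. H1047R lies above both other lists at 31, 76, 78 and 82 kb of WWTR1, and E545K lies below WT at 96, 97, 144 and 165 kb of TEAD1.

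TEAD3 (ENSG00000007866.22, chromosome 6, 35473597 to 35497079, minus strand) had promoter areas of 7157 (WT), 7087 (E545K) and 8371 (H1047R), at percentiles 88.4 in WT and 92.9 in H1047R, with E545K between them. Its largest intronic region, 11.2 kb in, had 6343, 5681 and 6488. These regions were alike, and others were not. A stretch at the end of the gene had summed areas of 568 in WT (1 peak), 1610 in E545K (3 peaks) and 2237 in H1047R (2 peaks). The region next to it, 27.3 kb from the start, went the other way. It had 9327 in WT (1 peak), 6615 in E545K (2 peaks) and 7101 in H1047R (2 peaks). Whether the contrast at the end of the gene follows from where the peaks were cut was not tested. The region 7.77 kb in had 276, 238 and 547, a rank difference of 21.3 points from WT to H1047R. Beyond the gene, the regions 42.6 and 35.6 kb from the start had 2401 and 493 in WT, 1148 and 285 in E545K and 1882 and 522 in H1047R, or −16.2 and −13.6 points from WT to E545K. The 20 kb beyond the gene also hold the starts of RPL10A and TULP1, so peaks there need not belong to TEAD3. TEAD4 (ENSG00000197905.10, chromosome 12, 2959330 to 3040676, plus strand) had 6098, 5500 and 6488, at percentiles 82.0, 80.8 and 84.0. The TEAD4 locus held 9 peaks in WT, 4 in E545K and 8 in H1047R. The regions 11.5, 25.9, 39.7 and 46.5 kb in had WT and H1047R peaks of area 226 to 588 and no E545K peak. None of those peaks was strong in WT or H1047R. The intronic region 74.9 kb in held a peak of each list, with 740 (WT), 508 (E545K) and 713 (H1047R). Of 9 WT peaks at TEAD4 5 had no E545K partner, against 20.3% of all WT peaks. Of 8 H1047R peaks 4 had none, against 23.6% of all H1047R peaks.

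Taking the 10 genes as a group, 24 of 172 E545K peaks (14%, interval 9.56 to 19.9) had no WT partner, against 12.6% of all E545K peaks. In H1047R 31 of 194 (16%, 11.5 to 21.8) had no WT partner, against 17.9%. Conversely 36 of 188 WT peaks (19.1%, 14.2 to 25.4) had no E545K partner, against 20.3%, and 26 (13.8%, 9.62 to 19.5) no H1047R partner, against 11%. Between the knock-ins, 39 of 194 H1047R peaks (20.1%, 15.1 to 26.3) lacked an E545K partner, against 23.6%, and 22 of 172 E545K peaks (12.8%, 8.6 to 18.6) an H1047R partner, against 9.14%. Each of these 6 intervals includes the share over all peaks. Strong E545K peaks lacked a WT partner in 5 of 93 cases (5.38%, 2.32 to 12), against 2.55%, with 4 at PTPN14 and 1 at ASAP1. Strong H1047R peaks lacked one in 2 of 111 (1.8%, 0.496 to 6.33), against 2.95%, at PTPN14 and ASAP1. Against E545K, 6 of 111 strong H1047R peaks were alone (5.41%, 2.5 to 11.3), against 2.87%, with 2 each at TEAD1 and ASAP1 and 1 each at WWTR1 and CCN1. Of 101 strong WT peaks 0 lacked a partner in E545K and 0 in H1047R, which allows a share of up to 2.97% (3 peaks of 101, the limit used for a count of 0; the Wilson upper bound is 3.66%), while 2.13% and 1.4% of all strong WT peaks did. By area, then, no strong WT peak of these genes was missing from a knock-in list.

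Rank differences were summarised over the 120 shared regions of the 10 genes. The median from WT to H1047R was −2.02 points, against −0.244 over all shared regions. Lower were 74 regions and higher 46, where 36234 and 33420 of all 69662 shared regions were. From WT to E545K it was −0.248, against −0.291, and from E545K to H1047R −1.22, against 0.033. At least 10 points lower in E545K than in WT were 22 of the 120, with 17.7% of all, and 14 were higher, with 17.1% of all. Against E545K, 26 were lower in H1047R, with 17.2% of all, and 20 higher, with 17% of all. At least 10 points lower in H1047R than in WT were 30 of the 120, with 18.3% of all, and 18 were at least 10 points higher, with 17.6% of all. The regions of 1 gene lie side by side and are not independent.

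**Figure D5:**
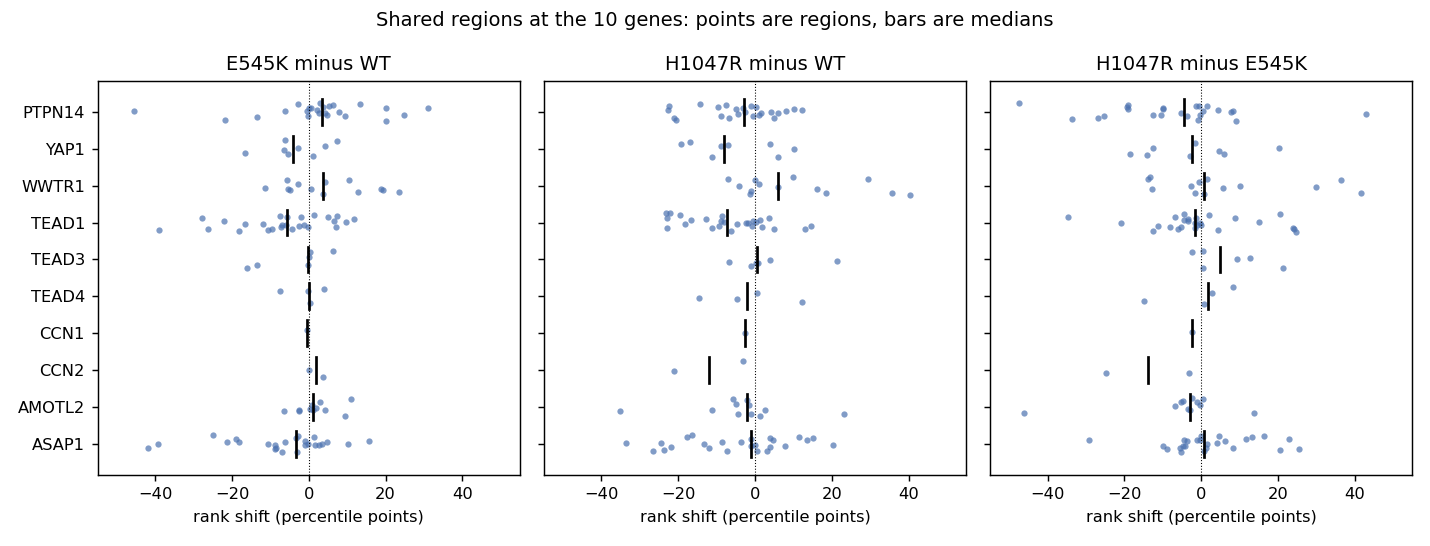
Difference in percentile rank by area between 2 lists for each of the 120 shared regions, by gene, for E545K minus WT, H1047R minus WT and H1047R minus E545K; points are regions, with vertical scatter for legibility, and black bars are medians. The TEAD1 medians lie at −5.79 and −7.2 points in both comparisons with WT, and the WWTR1 medians at 3.72 and 6.06.

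TEAD motifs were sought within 100 bp of each summit on both strands, and a letter shared by 2 motifs counted for both. They were found in 50 of 188 WT peaks (26.6%, 20.8 to 33.3), 41 of 172 in E545K (23.8%, 18.1 to 30.7) and 41 of 194 in H1047R (21.1%, 16 to 27.4). Over all peaks the shares were 18.1%, 17.4% and 16.7%. In this 100 bp window the WT and E545K intervals lie above them and the H1047R interval includes it. Within 250 bp the H1047R share was 38.1%, against 30.6% of all peaks, and over whole peaks 45.4%, against 35.1%. The H1047R share was thus higher in each window, and a contrast between lists was not tested. Neighbouring peaks of a gene are not independent, so the intervals cover counting error only. Most of these peaks are shared, so the shares of the 3 lists are not independent of each other. AP-1 elements within 100 bp of the summit were found in 31.4%, 29.1% and 35.6%, against 34.4%, 32.5% and 36.9% over all peaks. Both motifs together were found in 13, 9 and 13 peaks (6.91%, 5.23% and 6.7%, against 6.29%, 5.78% and 6.14%).

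The rank differences were then set beside the motif at the WT summit. Member regions with a TEAD motif (31) had a median difference from WT to H1047R of −2.2 points, the same as the −2.2 of all 12350 shared regions with the motif. Of those 12350 regions 26.2% ranked at least 10 points lower in H1047R, against 16.6% of regions without it. At the members the counts were 7 of 31 with the motif and 23 of 89 without it, so that contrast was not seen there. With AP-1 at the WT summit, 38 member regions had a median of 2.83 points, with 13 at least 10 points higher (25.3% of all regions with AP-1), and the 82 without it −4.9, with 24 at least 10 points lower (20.2% of all without AP-1). All shared regions had medians of 1.73 with AP-1 and −0.87 without, so the direction at the members was that of all shared regions.

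Other genes of the pathway were counted by list. Of 22 Hippo kinases and scaffolds 20 had a promoter peak in all 3 lists, all but DCHS1 and RASSF1. So did 3 of 4 other TEAD factors and cofactors, all but VGLL2, and 20 of 21 other YAP targets, all but DLC1. None had one in some lists only. Among the 20 other YAP targets 6 promoters ranked at least 10 points lower in H1047R than in WT and 0 higher, with 6.7% and 7.5% of all. Named after their values were seen, they were AXL, a receptor tyrosine kinase gene (area 5465 in WT, 3662 in E545K and 3556 in H1047R), RBMS3 (5967, 5146 and 3723), CCDC80 (4752, 4479 and 3890), NT5E, which encodes CD73 (3600, 3270 and 2902), FOXF2 (4014, 3686 and 3461) and F3, tissue factor (7883, 10232 and 6011). The median over the 20 was −0.867 points, against −0.32 over all shared promoters. By summit value 5 were lower and 2 higher, with 8.43% and 9.2% of all, and F3 was among the higher ones.

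Among the 20 Hippo kinases and scaffolds 2 ranked at least 10 points lower in H1047R than in WT, the kinase genes LATS2 (area 4519, 3942 and 3584) and MAP4K4 (4457, 3378 and 3697), and 0 higher, with 6.7% and 7.5% of all shared promoters. By summit value 5 were lower and 1 higher, with 8.43% and 9.2% of all. Of the 47 genes of these 3 lists, 7 had a strong WT peak without an E545K partner, where 4.6% of all coding genes did, and 5 one without an H1047R partner, where 2.74% did. A strong E545K peak without a WT partner was found at 2 of 47, with 5.73% of all, and one without an H1047R partner at 3 of 47, with 3.87% of all. DLC1, a RhoGAP gene, had 3 strong WT peaks without an E545K partner and 2 without an H1047R partner. VGLL3, a TEAD cofactor, had 3 strong E545K peaks without a WT partner, and THBS1, which encodes thrombospondin, 2 without an H1047R partner. A strong H1047R peak without a WT partner was found at 2 of 47, DCHS1 and VGLL3, with 7.04% of all, and one without an E545K partner at 4 of 47, STK3, STK4, DCHS1 and DLC1, with 7.69% of all.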

How the data were processed

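Trim Galore 0.4.0, cutadapt, FastQC, SAMtools and Genrich 0.6.1 are the tools the authors used, on build hg38, per the submitters' processing notes, which give no order. Which aligner was used was not given in the sources used here. The deposited lists, 1 per genotype and per the labels made from both samples, hold for each peak a score, the area under the −log10 p curve as signal, and the −log10 p of the summit. The deposited score was not used. No values per sample, depth or adjusted values are in the lists, and the results are descriptions. Areas are those of the authors' peak caller.

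Genes came from GENCODE release 44. A peak was strong in the upper 50% by area. Python 3.11.15 was used, with pandas 2.3.3 and numpy 2.4.6, plus matplotlib 3.10.9 for figures and scipy 1.17.1 for Wilson intervals. Partner counts were checked with bedtools 2.31.1, and 0 of 6 differed. The counting was tested on simulated data. All 10 genes were named with their promoter peak and their strong peaks without a partner, and of the other pathway genes up to 4 per pair of lists and direction. Members and lists were chosen with earlier results of these data known.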

Additional observations from a re-analysis of the deposited data

How the results depend on the processing

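Of 82 values from alternative settings over 17 results, 58 stayed within the stated tolerance (counts within 1.5 times, shares and medians within the 95% interval) and 24 moved. A reversal was counted only for the median difference from WT to H1047R, whose interval (−4.79 to −0.538) excludes 0. That interval treats the 120 shared regions as independent, which they are not, and the median over all shared regions was −0.244. It served only to set where a reversal was counted and shows no shift of the group. Of the alternatives for this median 0 reversed, and for the other results reversal was not assessed. With strong peaks by area the share without a partner was 5.38% for E545K against WT, 1.8% for H1047R against WT, 5.41% for H1047R against E545K, 0% for WT against E545K and against H1047R, and 7.53% for E545K against H1047R. With strength by summit value these shares were 2.38%, 1.83%, 3.67%, 2.06%, 0% and 0%. A partner within 500 bp gave 10.8% for H1047R against WT, and lists of equal length (89416 peaks) gave 12.7% for H1047R against E545K and for WT against E545K. TEAD motifs were found in 48.9%, 51.7% and 45.4% of WT, E545K and H1047R member peaks over whole peaks (36.2%, 38.4% and 35.1% of all peaks) and in 42.6%, 40.1% and 38.1% within 250 bp of the summit (31.4%, 31% and 30.6% of all). Added after seeing the data, ranking promoters by summit value gave 6 lower in H1047R than in WT and 5 lower than in E545K, and promoters of 2 kb each side gave 1 lower in H1047R than in WT. No paired analysis was possible because the lists hold no values per sample, and leaving out a replicate could not be run for the same reason. Depth limits what a missing small peak shows, since an uncalled peak may lie just under the caller's threshold.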
